A study of Homo sapiens with 5 samples.

Results

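The CRISPR activation sample carrying guide RNA gRNA2 was compared with its VPR control across all genes, cell by cell and in summed counts. Both samples are cultures of MDA-MB-468, an established human line of triple-negative breast cancer, that is, a breast cancer without oestrogen receptor, progesterone receptor or HER2 amplification. Cells were taken by the hashtag that the deposited assignment table gives them, and kept where they had 1500 or more detected genes and no more than 20% mitochondrial UMIs (unique transcript tags). This left 5137 of the 14642 kept cells of the series, 2542 in the gRNA2 sample (of 2681 assigned) and 2595 in the VPR control (of 2720 assigned).

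The series design lists 5 MDA-MB-468 samples, each stained with its own hashtag antibody and pooled into 1 library. They are VPR FOSL1 gRNA2, VPR FOSL1 gRNA3, a VPR control, an HA FOSL1 sample and an HA control. The labels spell out neither VPR nor HA, name no guide target sequence, and do not say what the VPR control carries or whether a sample is 1 clone or a mixed culture. A 5-fluorouracil treatment is mentioned for the study in general, without saying whether these samples received it. Each group holds 1 sample, so no difference below has a replicate check and no test could be made. Every interval is a 95% interval that covers counting error only. All 5 samples went through 1 library, and no called barcode was listed for more than 1 sample.

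FOSL1 encodes FRA-1, a Fos family member that pairs with a Jun protein to form the transcription factor AP-1, and AP-1 binds the sequence TGANTCA. In CRISPR activation, a Cas9 without cutting activity carries activation domains to the promoter that a guide RNA matches, so that the cell's own copy of a gene is transcribed more. VPR is the usual name of one such set of domains. In epithelial cells FRA-1 is known for its links with growth factor signalling, cell motility and the keratinocyte programme, and in breast cancer its level is high in basal-like and triple-negative tumours.

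The gRNA2 sample was somewhat deeper, with 48050317 UMIs in kept cells and a median of 17414.5 UMIs and 4346 genes per cell, against 44778587 UMIs and a median of 15810 UMIs and 4132 genes per cell in the VPR control. After each cell was thinned to 5000 UMIs the medians were 2058 and 2055 genes. Shares of cells below are given at that equal depth, which left out 5 gRNA2 cells and 8 control cells. The line's epithelial genes were present in both samples, with EPCAM at 351 CPM (a gene's UMIs relative to all UMIs of its sample) with gRNA2 and 344 CPM in the control and EGFR, a gene amplified in this line, at 2348 and 1829 CPM. The oestrogen receptor gene ESR1 stood at 2.91 and 1.83 CPM. Summed markers of fibroblasts stood at 2.50 and 3.35 CPM, of endothelial cells at 1.81 and 1.16 CPM, of leukocytes at 16.9 and 19.4 CPM and of melanocytes or nerve at 0.583 and 0.581 CPM. No UMI of COL1A2, DCN, LUM, VWF, CLDN5, CD3D, CD3E, MS4A1, SOX10 or SNAP25 was found in either sample, which, taking 3 counts as the limit, allows a level of up to 0.0624 CPM with gRNA2 and 0.0670 CPM in the control. Most of the leukocyte sum was CD14, at 15.3 CPM with gRNA2 and 18.6 CPM in the control.

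FOSL1 was detected far more often in gRNA2 cells than in control cells. Its summed level was 100.5 CPM with gRNA2 (exact Poisson interval 97.7 to 103.4) and 8.91 CPM in the VPR control (8.06 to 9.83). On the log2 scale of CPM + 1, on which all ratios below are given and which understates the ratios of low genes, the difference was 3.36 (3.22 to 3.49). At equal depth 32.1% of gRNA2 cells (Clopper-Pearson interval 30.3% to 33.9%) and 4.25% of control cells (3.51% to 5.10%) had a FOSL1 UMI, and without thinning the shares were 62.1% and 11.8%. Among thinned gRNA2 cells 23.0% had 1 UMI, 6.31% had 2 and 2.80% had 3 or more, with a maximum of 7. In thinned control cells 3.98% had 1 UMI and 0.271% had 2, the maximum. A gRNA2 cell with any FOSL1 UMI held 1.41 of them on average, and a control cell 1.06. Empty droplets of the pool held FOSL1 at 63.4 CPM. With 5% of the UMIs of each sample taken as such free RNA, the log2 ratio became 3.87.

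Beyond FOSL1, few genes differed by 2-fold. The count was made over the 5752 genes whose mean level in the pair of samples was 20 CPM or more. Of these, 17 were at least 2-fold higher with gRNA2 (0.296%) and 11 at least 2-fold lower (0.191%), 28 in all (0.487%). At 1.5-fold there were 53 higher (0.921%) and 34 lower (0.591%). The counts of higher genes and the total include FOSL1 itself. The VPR control set against the HA control by the same rule gave 2 of 5726 genes at 2-fold (0.0349%) and 15 at 1.5-fold (0.262%). The standard deviation of the log2 ratios over genes was 0.188 for gRNA2 against its control and 0.101 for the control pair, and the quartiles of the gRNA2 ratios were -0.06 and 0.08. Counting error alone was small at this depth, since the interval left out 0 for 1542 genes on the higher side (26.8%) and for 1223 on the lower side (21.3%), beside 1472 (25.7%) and 736 (12.9%) for the VPR control over the HA control. For that reason size, and not the interval, is used below.

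Genes past 2-fold were found at every level of abundance. Between 20 and 50 CPM there were 5 genes higher and 4 lower of 2794, between 50 and 200 CPM 9 higher and 5 lower of 2228, and between 200 and 1000 CPM 3 higher and 1 lower of 591. Of 139 genes at 1000 CPM or more, S100A9 alone was 2-fold apart, and it was lower. FTH1, which encodes the heavy chain of the iron store ferritin, was the most abundant gene past 1.5-fold, at 15697 CPM with gRNA2 and 10272 CPM in the control (log2 0.61). S100A6 at 4676 and 3014 CPM (0.63) followed. On the lower side MGP, encoding matrix Gla protein, an inhibitor of calcification, stood at 2010 CPM with gRNA2 and 3041 CPM in the control (-0.60).

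**Figure D1:**
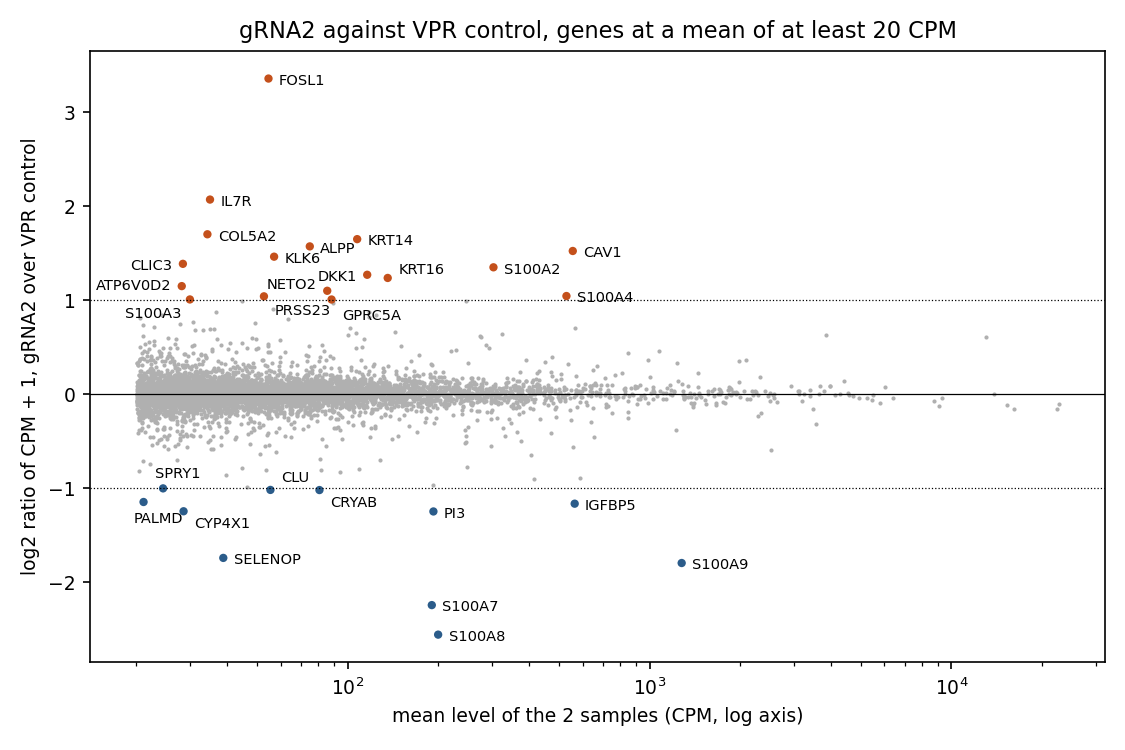
Log2 ratio of CPM + 1, gRNA2 over VPR control (vertical axis), against the mean level of the 2 samples in CPM (horizontal log axis), 1 point for each of the 5752 genes with a mean of 20 CPM or more. Dotted lines mark 2-fold; the 17 genes higher and 11 lower by that rule are named, and FOSL1 lies highest at 3.36.

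Caveolar genes were among the best counted of the higher genes. CAV1, encoding caveolin-1, the scaffold protein of the small membrane pits called caveolae, stood at 827 CPM with gRNA2 and 287 CPM in the control (log2 1.52, 1.49 to 1.55). Its UMIs at equal depth rested on a broad shift of the cells, with a median of 3 per gRNA2 cell and 1 per control cell and with 86.4% and 58.5% of cells positive. CAV2, its partner, stood at 328 and 165 CPM (0.99) and the coat protein gene CAVIN1 at 176 and 111 CPM (0.66). CAVIN2 (2.87 and 1.09 CPM) and EHD2 (3.25 and 1.90 CPM), which act at the neck and coat of the same pits, were under 20 CPM. Of 6 measured caveolar genes 3 reached that floor and all 3 were at least 1.5-fold higher, beside 0.921% of all genes tested, with a median ratio of 0.99 beside 0.01 over all 5752 genes. This list and those below were chosen with earlier results of these data known, so their counts and medians are descriptive only.

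Keratins of basal and stressed epidermis were higher, while those of glandular epithelium differed less. KRT14, the main type I keratin of basal keratinocytes, stood at 163.7 CPM with gRNA2 and 51.5 CPM in the control (log2 1.65, 1.58 to 1.72), and KRT16, which is induced in wounded skin, at 191 and 80.6 CPM (1.24). KRT5, the type II partner of KRT14, stood at 396 and 254 CPM (0.64) and KRT15 at 58.4 and 38.3 CPM (0.60), whereas KRT17 reached a ratio of 0.26. Thus 4 of the 5 basal keratins over the floor passed 1.5-fold and 0 were lower, beside 0.921% higher and 0.591% lower of all genes tested, with a median of 0.64. The 4 simple keratins over the floor, KRT7, KRT8, KRT18 and KRT19, lay between 0.19 and 0.35, with 0 past 1.5-fold in either direction. KRT14, KRT16 and KRT17 are alike in sequence, so the split of reads among them is uncertain.

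Kallikrein proteases of the skin were higher, whereas a pair of defensive protease inhibitors was lower. The kallikrein genes KLK6 (84.3 CPM with gRNA2 and 29.9 CPM in the control, log2 1.46), KLK10 (118 and 59.9 CPM, 0.97) and KLK5 (703 and 430 CPM, 0.71), which encode serine proteases that cut desmosomal and other surface proteins, were all higher. These were the 3 of 7 kallikreins over the floor, all past 1.5-fold, beside 0.921% of all genes tested. CST6, encoding the secreted cysteine protease inhibitor cystatin M, stood at 59.7 and 29.6 CPM (0.99), and PRSS23, another serine protease gene, at 71.5 and 34.2 CPM (1.04). In contrast the protease inhibitor genes PI3 (elafin, 113.7 CPM with gRNA2 and 271 CPM in the control, -1.25) and SLPI (289 and 539 CPM, -0.90) were lower. The list of cornified envelope and surface defence genes, which holds both, had 0 higher and 2 lower of 6 members over the floor at 1.5-fold (beside 0.921% higher and 0.591% lower of all genes tested) and a median of -0.40. In both samples 5 of its 20 genes, among them LOR and FLG, had no UMI.

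The other genes past 2-fold were of varied kinds. IL7R, encoding the interleukin-7 receptor alpha chain, had the largest ratio after FOSL1 among genes over the floor, at 57.2 CPM with gRNA2 and 12.9 CPM in the control (log2 2.07, 1.95 to 2.19), with 16.4% and 4.75% of thinned cells positive. ALPP, placental alkaline phosphatase, stood at 112.7 and 37.2 CPM (1.57) and was found in 37.0% and 14.4% of cells. ALPP has near-identical relatives among the alkaline phosphatase genes, so its reads may be shared with them. NETO2, encoding an accessory protein of kainate receptors, stood at 117 and 54.1 CPM (1.10), GPRC5A, an orphan receptor inducible by retinoic acid, at 118.6 and 58.5 CPM (1.01), the intracellular chloride channel family gene CLIC3 at 41.7 and 15.3 CPM (1.39) and the proton pump subunit gene ATP6V0D2 at 39.3 and 17.2 CPM (1.15). The matrix was represented by COL5A2, a chain of fibrillar collagen V, at 53.1 and 15.6 CPM (1.70). The secreted Wnt antagonist gene DKK1 stood at 165 and 67.7 CPM (1.27).

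**Figure D2:**
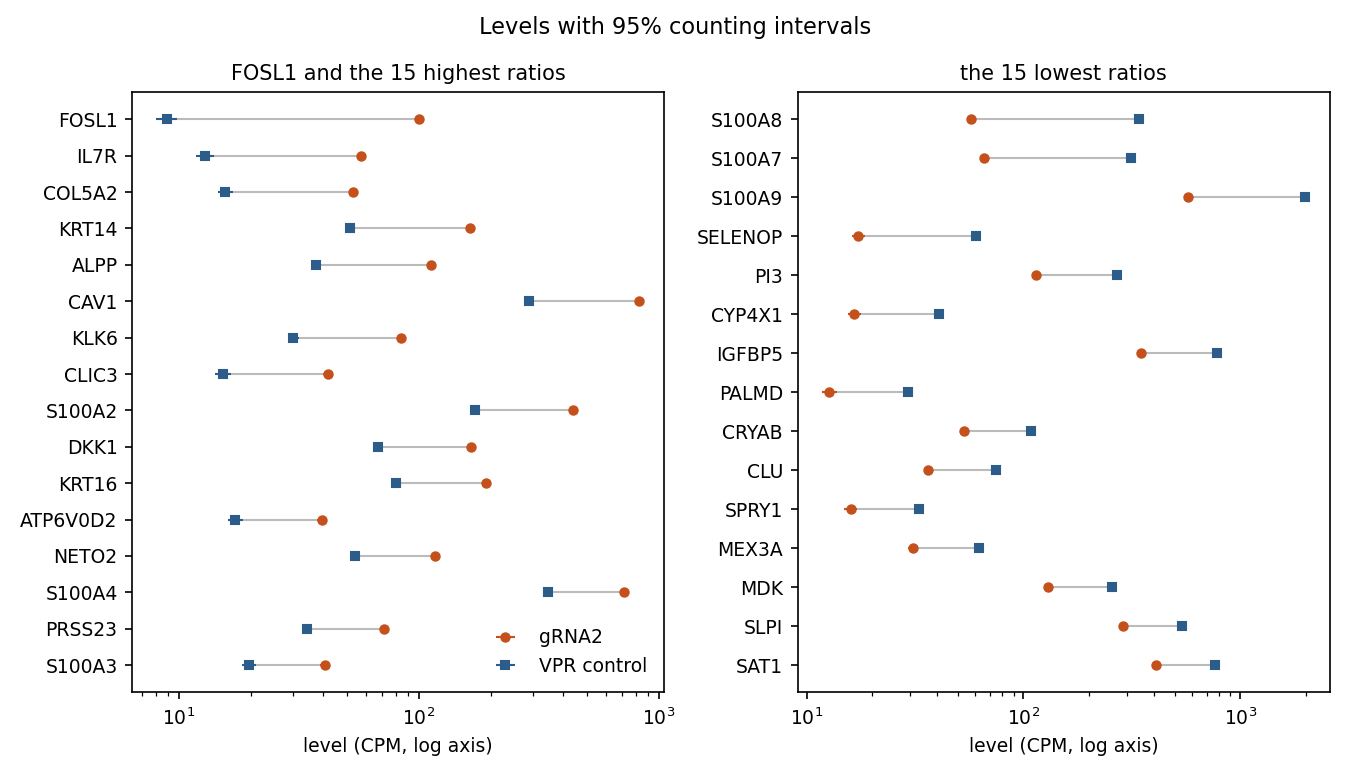
Level of FOSL1 and the 15 genes with the highest ratios (left) and of the 15 with the lowest ratios (right) in CPM on a log axis, circles for gRNA2 and squares for the VPR control, with 95% Poisson intervals of counting error where these exceed the symbol. CAV1 lies highest among the higher genes at 827 CPM with gRNA2, and S100A9 highest among the lower ones at 1985 CPM in the control.

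The lowest ratios were those of 3 S100 genes. S100A8 and S100A9 encode the subunits of calprotectin, a metal-binding antimicrobial protein, and S100A7 encodes psoriasin, another antimicrobial protein of skin. S100A8 stood at 57.3 CPM with gRNA2 and 342 CPM in the control (log2 -2.56, -2.62 to -2.50), S100A7 at 65.7 and 315 CPM (-2.24, -2.30 to -2.19) and S100A9 at 571 and 1985 CPM (-1.80, -1.82 to -1.78). S100A7 was not 2-fold lower against the HA control, where its ratio was -0.74. Thinned S100A9 counts had a median of 2 UMIs per gRNA2 cell and 7 per control cell, and 77.5% and 95.5% of cells were positive. For S100A8 the positive shares were 15.8% and 49.6% and for S100A7 12.3% and 35.4%. In the gRNA2 sample no cell held over 7.58% of the UMIs of any gene past 2-fold, the value for S100A7, and in the control 1 cell held at most 1.20% of the S100A7 UMIs. S100A7 has a close copy in S100A7A, so its counts are uncertain to that extent.

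Secreted luminal and growth factor binding genes were mostly lower. IGFBP5, a binding protein of insulin-like growth factors, stood at 348 CPM with gRNA2 and 782 CPM in the control (-1.16), IGFBP2 at 38.7 and 68.5 CPM (-0.81), the growth factor midkine gene MDK at 130 and 255 CPM (-0.96), the selenium carrier gene SELENOP at 17.3 and 60.2 CPM (-1.74) and the secreted chaperone gene CLU at 36.4 and 74.7 CPM (-1.02). IGFBP3 went the other way, at 332.1 and 216.3 CPM (0.62). Of the 8 members of this list over the floor, 1 was thus higher and 5 lower at 1.5-fold, beside 0.921% higher and 0.591% lower of all genes tested, and the median was -0.89. This mixed list too was chosen with earlier results of these data known, so its count is no independent support for a direction. The other genes among the 15 lowest were the cytochrome P450 gene CYP4X1 (16.6 and 40.7 CPM, -1.25), PALMD (12.8 and 29.5 CPM, -1.15), the small heat shock protein gene CRYAB (52.99 and 108.4 CPM, -1.02), SPRY1, an inhibitor of receptor tyrosine kinase signalling (15.98 and 33.01 CPM, -1.002), the RNA-binding protein gene MEX3A (30.9 and 62.2 CPM, -0.98) and SAT1, encoding the enzyme that starts polyamine breakdown (410 and 763 CPM, -0.90). SPRY1 lies just inside the 2-fold limit and MEX3A just outside it.

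The S100 genes differed in both directions although most of them sit side by side on chromosome 1. These genes encode small calcium-binding proteins. Of 15 listed, 12 reached the floor, 4 were at least 1.5-fold higher and 3 lower, beside 0.921% higher and 0.591% lower of all genes tested, and the median was 0.14. In order along the chromosome (RefSeq, GRCh38.p14), S100A9 (chr1:153357854-153361023), S100A8 (chr1:153390032-153422583) and S100A7 (chr1:153457744-153460651) were the 3 lower ones. The next 4 of the list were the higher ones, namely S100A6 (chr1:153534599-153535991), S100A4 (chr1:153543621-153545806), S100A3 (chr1:153547329-153549258) and S100A2 (chr1:153561108-153565844). S100A4 stood at 715 CPM with gRNA2 and 346 CPM in the control (1.04), S100A3 at 40.5 and 19.6 CPM (1.01) and S100A2 at 437 and 171 CPM (1.35). Against the HA control S100A2 was not 2-fold higher, at 0.68. Beyond them S100A16 (0.19), S100A14 (-0.04) and S100A13 (0.09) differed little, and on the near side of S100A9 S100A10 had 0.46 and S100A11 0.01.

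The promoters of the higher genes were searched for the AP-1 sequence, because FOSL1 was the gene targeted. The motif was TGANTCA, a palindrome apart from its middle base and so read alike on both strands, in the 250 bases before each start that RefSeq (GRCh38.p14) gives a gene, and a gene counts if any of its starts has it. It was present in 2 of the 11 genes at least 2-fold higher with such a sequence (18.2%, Clopper-Pearson interval 2.28% to 51.8%), S100A2 and S100A3, and in 5 of 35 at least 1.5-fold higher (14.3%, 4.81% to 30.3%), which adds UPP1, CPA4 and EMP1. It was present in 0 of 8 at least 2-fold lower (up to 36.9%), in 1 of 24 at least 1.5-fold lower, PROM1 (4.17%, 0.105% to 21.1%), and in 250 of 4677 of all genes tested (5.35%). Counted by start, it was present before 2 of 15 starts of the genes 2-fold higher (13.3%), 5 of 46 of those 1.5-fold higher (10.9%) and 273 of 6765 of all genes tested (4.04%). S100A2 has 2 such starts and UPP1 has 3, of which 1 each holds it. The sequences of S100A2, S100A3 and UPP1, the 3 named higher genes that hold it, are shown 5′ to 3′ on the gene's strand with the motif in capitals. A match in these letters does not show that the factor binds there.
S100A2 chr1:153565845-153566094: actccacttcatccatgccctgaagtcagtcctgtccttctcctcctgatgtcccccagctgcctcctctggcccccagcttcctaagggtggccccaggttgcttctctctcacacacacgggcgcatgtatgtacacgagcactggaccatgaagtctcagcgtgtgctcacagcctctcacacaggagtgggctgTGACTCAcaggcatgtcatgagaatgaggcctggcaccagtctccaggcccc
S100A3 chr1:153549259-153549508: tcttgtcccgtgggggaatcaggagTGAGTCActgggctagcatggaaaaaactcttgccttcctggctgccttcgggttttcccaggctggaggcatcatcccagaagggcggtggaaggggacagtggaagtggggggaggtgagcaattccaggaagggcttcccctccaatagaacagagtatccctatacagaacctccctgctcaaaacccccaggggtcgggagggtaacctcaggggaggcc
UPP1 chr7:48088454-48088703: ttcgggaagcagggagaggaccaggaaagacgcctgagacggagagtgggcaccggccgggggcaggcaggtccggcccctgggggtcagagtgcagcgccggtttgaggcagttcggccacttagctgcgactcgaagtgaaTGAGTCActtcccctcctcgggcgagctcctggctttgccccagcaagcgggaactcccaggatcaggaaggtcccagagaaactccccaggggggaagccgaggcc
The motif began 52 bases before the start of S100A2, 225 before that of S100A3 and 107 before that of UPP1. S100A2 and S100A3 lie on the minus strand and UPP1 on the plus strand.

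Distributions over single cells showed whether a summed difference came from many cells or from few. For S100A6 every cell of both samples was positive even at equal depth, with a median of 22 UMIs per gRNA2 cell and 14 per control cell. S100A2 was found in 73.0% of gRNA2 cells and 45.3% of control cells, with 3.06 and 1.93 UMIs per positive cell. IGFBP5 was found in 41.0% and 67.2% of cells, and the 95th percentile of its UMIs was 9 in gRNA2 cells and 15 in control cells.

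**Figure D3:**
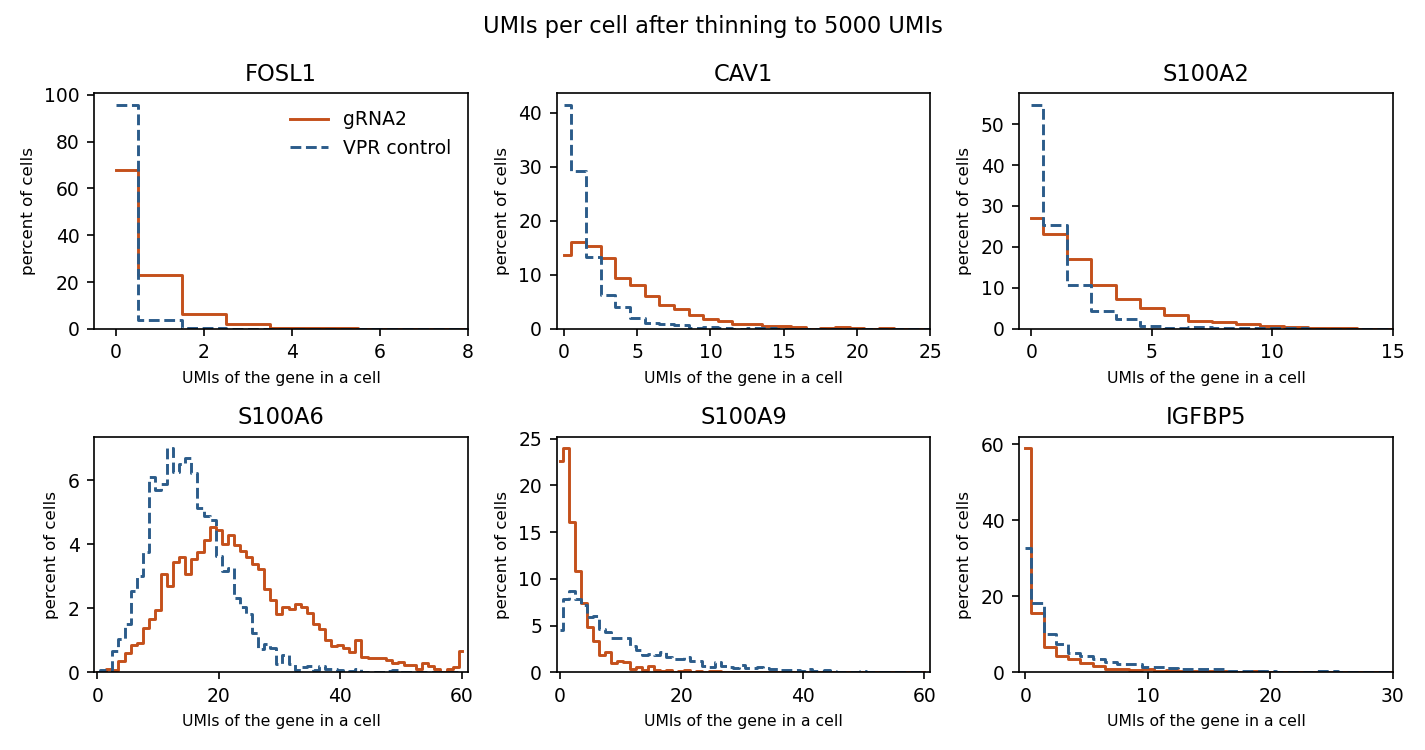
UMIs per cell after thinning to 5000 UMIs (horizontal axis) against percent of cells (vertical axis) for 6 genes, solid line for 2537 gRNA2 cells and dashed line for 2587 VPR control cells. For S100A6 and S100A9, cells with 60 or more UMIs stand in the last bin, and for the other genes the few cells beyond the axis are not drawn. The S100A6 curve lies further right with gRNA2 (median 22 against 14) and the S100A9 curve further left (median 2 against 7).

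Counting cells in place of UMIs named some further genes. The share of positive cells was at least 10 percentage points higher with gRNA2 for 37 of 5752 genes (0.643%) and at least 10 points lower for 29 (0.504%). Outside FOSL1 and the 15 highest ratios, the shares that were higher by the most were those of CAV2 (73.8% with gRNA2 and 50.1% in the control), the pyrimidine salvage enzyme gene UPP1 (50.7% and 31.9%), GPRC5A (39.2% and 21.8%), the kinase inhibitor gene CAMK2N1 (47.0% and 30.4%) and KLK10 (39.3% and 23.7%). Outside the 15 lowest ratios, the genes whose shares were lower by the most included RARRES3 (52.6% with gRNA2 and 70.8% in the control, summed log2 ratio -0.78), CCDC85B (28.1% and 44.2%, -0.82), the aldo-keto reductase gene AKR1C2 (29.2% and 44.3%, -0.70) and the tight junction gene CLDN10 (29.3% and 44.1%, -0.79). RARRES3 and GPRC5A are both known as retinoic acid responsive genes, and they lay on opposite sides. AKR1C2 is a close copy of AKR1C1 (123 CPM with gRNA2 and 143 CPM in the control), so counts may be split between them.

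Among 5867 genes at a mean of 2 to under 20 CPM, the clearest differences by counting interval included genes at very low levels in one sample. SERPINB7, encoding a protease inhibitor, stood at 31.3 CPM with gRNA2 and 5.27 CPM in the control (log2 2.37), the olfactomedin-domain gene OLFML3 at 18.9 and 5.78 CPM (1.55) and AC011473.4 at 6.51 and 1.45 CPM (1.62). On the lower side were the cysteine-rich secretory protein gene CRISP3 (2.60 CPM with gRNA2 and 14.9 CPM in the control, -2.14), HSD17B2, which encodes an enzyme that inactivates oestradiol and testosterone (4.00 and 15.5 CPM, -1.72), the transcription factor gene SOX11 (6.18 and 20.1 CPM, -1.55), C11orf53 (5.99 and 18.0 CPM, -1.44) and the defensin gene DEFB1 (8.26 and 23.4 CPM, -1.40).

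The other 2 genes of that group, CCL5 and IFIT2, rested on 1 cell. CCL5, a chemokine gene, stood at 10.1 CPM with gRNA2 and 0.223 CPM in the control (log2 3.18), and IFIT2, an interferon-induced antiviral gene, at 10.8 and 1.70 CPM (2.12). The same gRNA2 cell held 457 of the 484 CCL5 UMIs (94.4%) and 352 of the 517 IFIT2 UMIs (68.1%) of its sample. Without it the ratios were 0.35 for CCL5 and 0.72 for IFIT2. That cell had 35731 UMIs and 6391 genes, and 0.143% of its UMIs were mitochondrial, beside medians of 10.6% in the gRNA2 sample and 11.3% in the control. It also held 97 of the 117 OASL UMIs and 664 UMIs of ISG15. The 20 listed interferon-stimulated genes made up 38930 CPM in it, against medians of 430 CPM over gRNA2 cells and 460 CPM over control cells.

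Across the gene lists, which take in pathways as well as families, most medians lay near 0. Beside the median of 0.01 over all genes tested, 53 of them higher and 34 lower at 1.5-fold, proliferation genes had medians of 0.06 (S phase, 0 of 15 past 1.5-fold) and 0.01 (G2 and mitosis, 0 of 17), with PCNA, the sliding clamp of replication, at 363 CPM with gRNA2 and 365 CPM in the control. Genes of sterol and fatty acid synthesis (median -0.01, 15 genes), the unfolded protein response (-0.03, 10), p53 targets (-0.04, 4), YAP and TEAD targets (0.02, 7), hypoxia and glycolysis (0.12, 10) and epithelial junctions (0.03, 15) had 0 members past 1.5-fold among those over the floor, which alone are counted here. The same held for NF-kB targets (-0.0003, 4), interferon-stimulated genes (-0.07, 3), laminin-332 and hemidesmosome genes (0.36, 5), EGFR and its relatives (0.11, 2), MHC class I genes (-0.17, 10) and the 13 mitochondrially encoded genes (-0.11). Of the MHC class I genes, HLA-B was the lowest, at 312 CPM with gRNA2 and 442 CPM in the control (-0.50).

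AP-1 genes themselves differed little with gRNA2 apart from FOSL1. Of 14 subunits and relatives 9 reached the floor, and the median was -0.02. At 1.5-fold 1 was higher (FOSL1) and 0 lower, beside 0.921% higher and 0.591% lower of all genes tested. FOS stood at 65.6 CPM with gRNA2 and 53.1 CPM in the control (0.30), JUNB at 125 and 117 CPM (0.10), JUND at 168 and 184 CPM (-0.13) and JUN at 165 and 197 CPM (-0.25). FOSB stood at 73.2 and 63.0 CPM (0.21). With gRNA3 over the same control FOS had -0.85 and FOSB -0.68, and in the HA pair -2.16 and -1.87, the opposite direction. JUN (-0.38 with gRNA3, -0.55 in the HA pair) and JUND (-0.22 and -0.51) kept theirs, whereas JUNB had -0.08 and -0.14. FOSL2, the closest relative of FOSL1, stood at 15.8 and 18.7 CPM (-0.23), under the floor. Of 17 textbook AP-1 targets 5 reached the floor with 0 past 1.5-fold and a median of 0.17. With so few genes, a count of 0 cannot be told from the share over all genes. Among the 5 were the hyaluronan receptor gene CD44 (595 and 476 CPM, 0.32) and the cyclin gene CCND1 (540 and 482 CPM, 0.17). PLAUR was higher as well (0.20), whereas TIMP1 (30.7 and 45.3 CPM, -0.55) and VEGFA (-0.19) were lower. The metalloprotease genes MMP1, MMP3 and MMP10 had no UMI in either sample, and the EGFR ligand gene AREG stood at 19.7 CPM with gRNA2 and 8.84 CPM in the control (1.07), under the floor.

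Further lists held 1 or a few genes past 1.5-fold, beside 0.921% higher and 0.591% lower of all genes tested. In the collagen and matrix list (median 0.30, 4 genes) this was COL5A2, in the integrin list (0.12, 6 genes) the laminin receptor chain gene ITGA3 (59.96 CPM with gRNA2 and 39.5 CPM in the control, 0.59), and in the Wnt list (-0.11, 4 genes) DKK1. The TGF-beta and BMP list (0.08, 6 genes) held ID4, a BMP-responsive inhibitor of transcription factors (59.5 and 104 CPM, -0.80), and the MAPK feedback list (-0.20, 5 genes) held SPRY1. The heat shock list (0.004, 13 genes) held CRYAB and CLU, both lower, and the NRF2 list (0.05, 9 genes) FTH1, higher, and AKR1C2, lower. In the mesenchymal list (-0.09, 5 genes) S100A4 was higher and TAGLN, encoding the actin-binding protein transgelin, was lower (20.5 and 33.8 CPM, -0.70). Vimentin, VIM, stood at 5.37 CPM with gRNA2 and 9.04 CPM in the control (-0.66, -0.86 to -0.46), under the floor. It went the other way with gRNA3 over the same control (0.80) and in the HA pair (1.57).

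**Figure D4:**
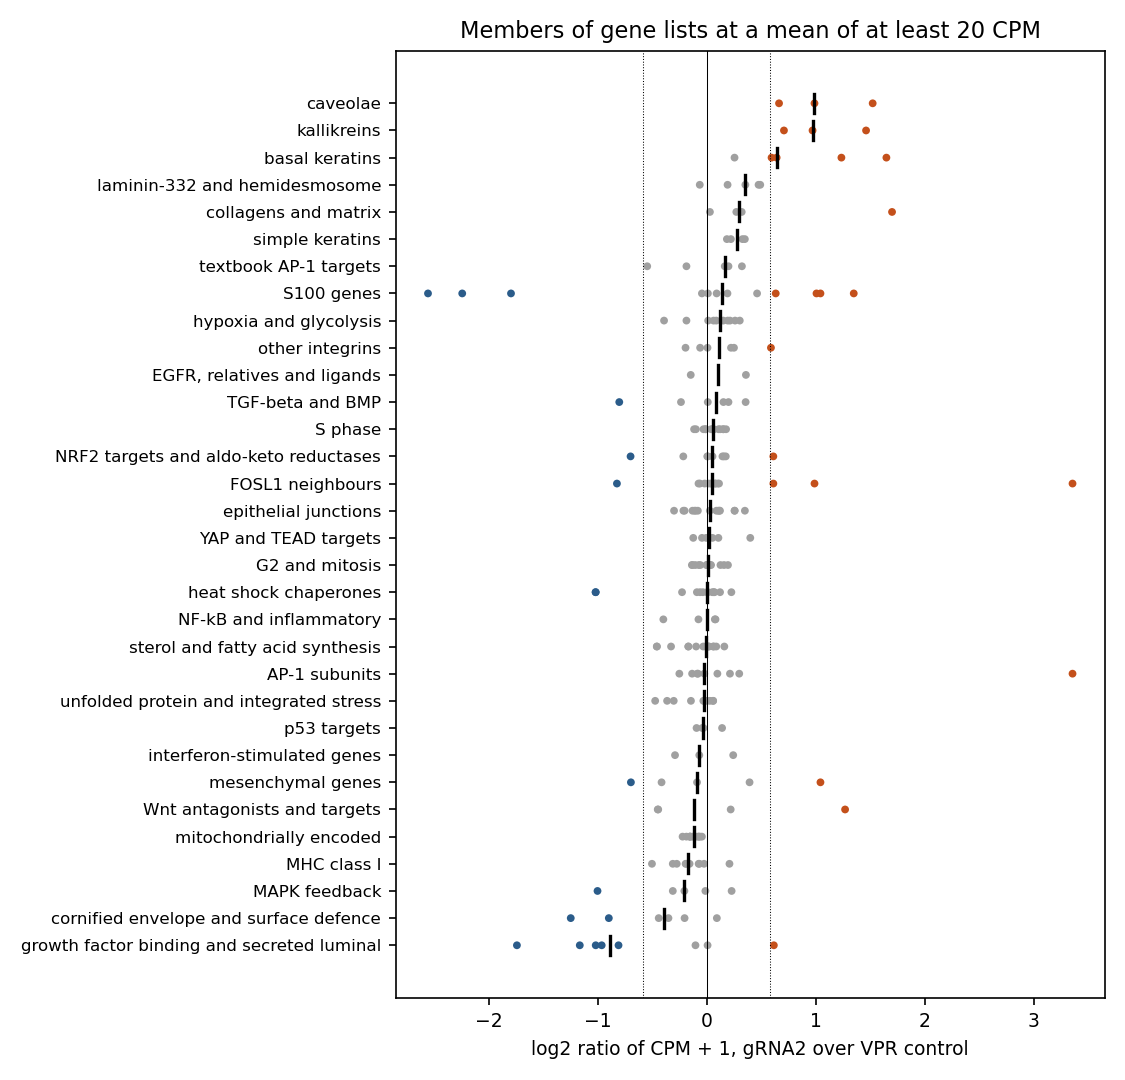
Log2 ratio of CPM + 1, gRNA2 over VPR control (horizontal axis), of the members of 32 gene lists (vertical axis, ordered by median) with a mean of 20 CPM or more, 1 point per gene. The lists were chosen with earlier results of these data known. Black bars are list medians, dotted lines mark 1.5-fold and coloured points lie past it; caveolae lie highest (median 0.99) and the growth factor binding and secreted luminal genes lowest (-0.89).

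Genes next to FOSL1 on chromosome 11 were examined because an activator is brought to that locus. FOSL1 spans chr11:65892049-65900545 in RefSeq (GRCh38.p14). Distances below run from the nearest end of this span, whichever end holds the promoter. They are not distances to the site that gRNA2 targets, which the labels do not give. Its nearest neighbour CCDC85B, a coiled-coil protein gene 414 bp away (chr11:65890673-65891635), stood at 68.01 CPM with gRNA2 and 121 CPM in the control (log2 -0.82, -0.89 to -0.76). FIBP, 3578 bp away on the same side, had a ratio of -0.06. On the other side C11orf68 stood at 18.3 and 14.9 CPM (0.28) at a distance of 16265 bp, and DRAP1, which encodes a transcriptional corepressor, at 334 and 218 CPM (0.61) at 18881 bp. CFL1, at 33869 bp, had 0.01. Of 22 listed genes of the region 15 reached the floor, 3 were higher at 1.5-fold (the targeted FOSL1 itself, CST6 and DRAP1) and 1 lower (CCDC85B), beside 0.921% higher and 0.591% lower of all genes tested, with a median of 0.05. In the gRNA3 sample, over the same control, CCDC85B had -0.42, DRAP1 0.86 and CST6 1.00. In HA FOSL1 over the HA control CCDC85B had 0.52, DRAP1 0.99 and CST6 2.39. CST6 is not among the genes whose distances were taken, and an effect of the activator on these genes was not tested.

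The gRNA3 sample shares the VPR control with gRNA2, so its values are set beside the gRNA2 values without a count of common genes. For gRNA2 and gRNA3 the ratios were 2.07 and 1.80 for IL7R, 1.52 and 1.67 for CAV1, 1.39 and 1.07 for CLIC3, 1.04 and 0.78 for PRSS23, and -2.56 and -2.35 for S100A8. OLFML3 had 1.55 and 2.86. CCL5 and IFIT2, the genes of the single gRNA2 cell, had -0.13 and 0.34 with gRNA3.

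The HA pair shares no sample with the gRNA2 comparison, although it comes from the same pool. In the HA pair, HA FOSL1 over the HA control, 124 of 5748 genes were at least 2-fold higher (2.16%) and 46 lower (0.8%), and at 1.5-fold 343 were higher (5.97%) and 126 lower (2.19%). Both comparisons tested 5622 genes in common, among which the HA pair had 88 genes 2-fold higher and 44 lower. Of the 17 genes 2-fold higher with gRNA2, 15 were also 2-fold higher in the HA pair, which is 88.2% of the gRNA2 list and 17.0% of the HA list. The exceptions were S100A2 (-0.04 in the HA pair) and ATP6V0D2 (0.78). FOSL1, the gene that the labels of both FOSL1 samples name, is counted among the 15 shared with the HA pair. Of the 11 genes lower with gRNA2, 8 were also 2-fold lower there, 72.7% of the gRNA2 list and 18.2% of the HA list, and the exceptions were S100A7 (-0.27), CYP4X1 (-0.71) and CLU (-0.97). At 1.5-fold 47 of 53 higher genes (88.7%, and 16.4% of the HA list), again with FOSL1, were shared. So were 24 of 34 lower genes (70.6%, and 19.4%), while ADAMTS1 and TAGLN lay on opposite sides. Of the genes 2-fold higher with gRNA2, all but FOSL1, S100A2, ALPP and ATP6V0D2 had a smaller ratio with gRNA2 than in the HA pair. Those with a smaller ratio included KLK6 (1.46 and 3.25), PRSS23 (1.04 and 2.59) and NETO2 (1.10 and 2.20). FOSL1 itself had the larger ratio with gRNA2 (3.36, and 2.70 in the HA pair). The labels do not describe the HA construct, so the FOSL1 ratios of the pairs may not count the same RNA. These differences between the pairs were not tested.

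**Figure D5:**
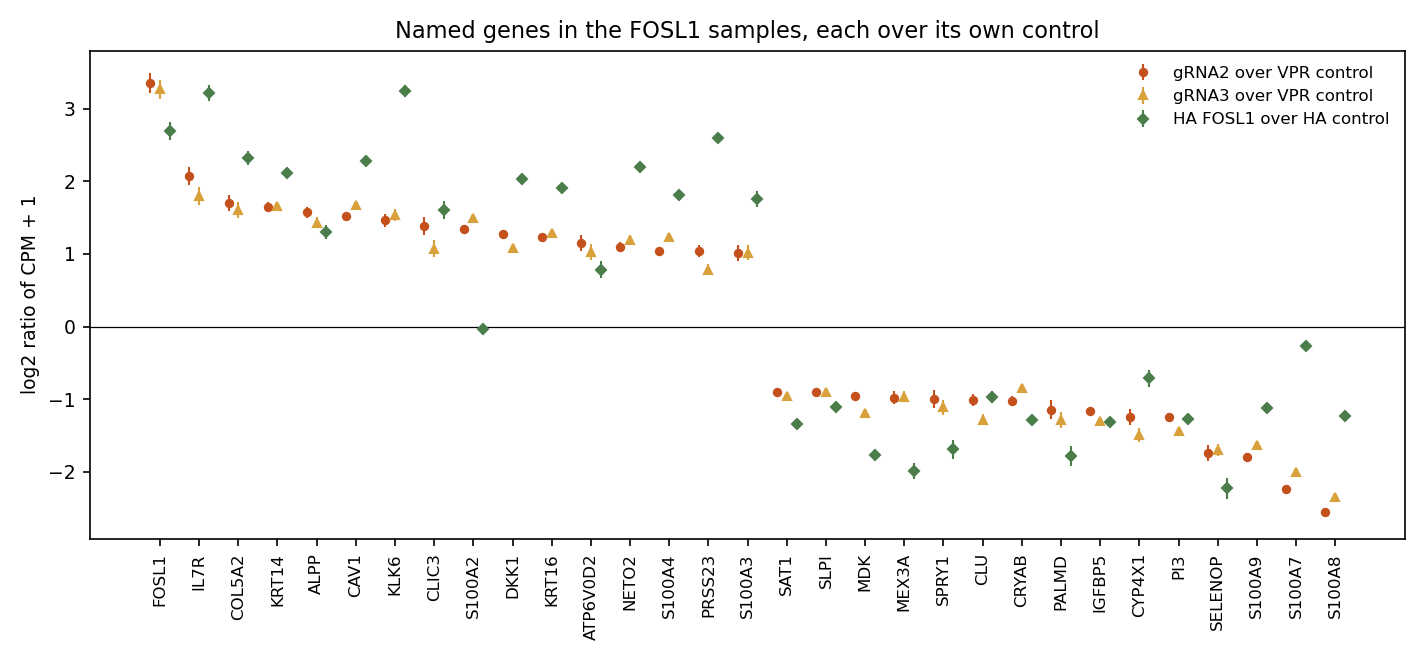
Log2 ratios of CPM + 1 (vertical axis) of FOSL1 and the 15 highest and 15 lowest genes of the gRNA2 comparison (horizontal axis), circles for gRNA2, triangles for gRNA3, both over the VPR control, and diamonds for HA FOSL1 over the HA control, with 95% intervals of counting error. S100A2 (-0.04) and S100A7 (-0.27) are the genes whose HA values lie nearest 0.

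Against the HA control in place of the VPR control, the ratios of S100A2, S100A7, S100A8 and S100A9 lay closer to 0. S100A2 stood at 171 CPM in the VPR control and 273 CPM in the HA control, and S100A7 at 315 and 110 CPM. The ratio of gRNA2 to the HA control was 0.68 for S100A2, -0.74 for S100A7, -2.05 for S100A8 and -1.42 for S100A9. Of the 17 higher genes 16 stayed past 2-fold against the HA control, all but S100A2, and of the 11 lower genes 8 did, all but S100A7, CYP4X1 and CLU. All 28 stayed past 1.5-fold. Some ratios were larger against the HA control, at 2.26 for ALPP, 2.07 for KLK6, 2.25 for OLFML3, -2.02 for IGFBP5, -2.06 for DEFB1 and -2.83 for CRISP3.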

How the data were processed

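Cells of 5 hashed MDA-MB-468 samples made up 1 library of 10x 3' chemistry. Raw UMI counts for every gene and barcode were deposited, made by the authors with Cell Ranger, version 4 per the file headers, on build hg38 per the submitters' processing notes. The authors' deposited assignment table gives each of 21228 called cells a hashtag with a probability as a fraction, at least 0.917 in the gRNA2 sample and 0.920 in the VPR control. Its 5181 multiplets, 402 unassigned cells and 274 blanks were left out. Doublets within a sample were not called. The labels' protocol mentions 6 stained samples, the series design 5. The HA samples were matched by elimination to the hashtags with the prefix GOF.

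For each sample the UMIs of kept cells were added up and scaled to CPM. Ratios are log2 of CPM + 1 with an exact conditional binomial interval, levels have exact Poisson intervals and shares Clopper-Pearson intervals. With 1 sample a group no test across samples was made. Thinning drew 5000 UMIs per cell. The free RNA profile came from the 48909 barcodes that held 10 to 100 UMIs. The ratio script was tested on simulated data. Python 3.11.15 with numpy 2.4.6, scipy 1.17.1 and pandas 2.3.3, and edgeR 4.0.16 for TMM factors, were used.

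The text names FOSL1, the 15 highest and 15 lowest ratios among genes with a mean of 20 CPM or more whose interval leaves out 0, 5 a side between 2 and 20 CPM by the near bound of the interval, 5 a side by share of positive cells, and members of the 38 gene lists past 1.5-fold or else among the 2 highest expressed. Other genes in the text were chosen after their values were seen. A few genes are not reported here. The members and lists were chosen with earlier results of these data known. Alternatives covered scaling, pseudocount, floor, cell filters, thinning, free RNA, the HA control and assignment probability. RefSeq tables on GRCh38.p14 gave positions and promoters.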

Additional observations from a re-analysis of the deposited data

Results flagged for a closer look

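Among genes with a mean of 20 CPM or more, those past 1.5-fold on opposite sides with gRNA2 and in the HA pair were TAGLN and ADAMTS1. TAGLN, encoding transgelin, stood at 20.5 CPM with gRNA2 and 33.8 CPM in the VPR control (log2 -0.70, -0.81 to -0.58), and at 73.4 CPM in HA FOSL1 and 27.4 CPM in the HA control (1.39, 1.30 to 1.48). ADAMTS1, encoding a secreted metalloprotease, stood at 35.2 CPM with gRNA2 and 20.5 CPM in the VPR control (0.75, 0.64 to 0.86), and at 18.4 CPM in HA FOSL1 and 32.5 CPM in the HA control (-0.79, -0.91 to -0.67). In the gRNA3 sample over the VPR control TAGLN had -0.60 and ADAMTS1 1.30. The controls themselves differed, as the VPR control over the HA control had 0.29 for TAGLN and -0.64 for ADAMTS1. The gRNA2 level of ADAMTS1 (35.2 CPM) was close to that in the HA control (32.5 CPM). Each group is 1 sample, so the difference between the pairs was not tested.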

How the results depend on the processing

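Of 63 genes followed besides FOSL1, 0 changed direction under 11 other settings and the 1 chosen after seeing the data, which leaves out the gRNA2 cell with most CCL5 and IFIT2 UMIs. Their sizes were less stable. With the HA control as reference 55 ratios left their main counting interval, and 45 did in cells with at least 3000 genes and at most 10% mitochondrial UMIs. With free RNA subtracted 31 did, with thinned cells 22, and under each other setting at most 11. The counts moved with the floor. At a floor of 5 CPM there were 36 genes 2-fold higher and 25 lower, and 118 and 80 at 1.5-fold, of 9859. With no floor there were 51 and 36 at 2-fold, and 198 and 173 at 1.5-fold, of 21552. With the HA control in place of the VPR control, 17 genes were 2-fold lower, 90 were higher and 66 lower at 1.5-fold, and 60 had a higher share of positive cells. Without thinning that share was higher for 115 genes. The FOSL1 ratio was 3.12 in cells with at least 3000 genes and at most 10% mitochondrial UMIs, 3.19 with thinned cells and 3.87 with free RNA subtracted. The cause of these moves was not tested. CCL5 and IFIT2 had 0.40 and 0.81 without the deepest 10% of cells, and 0.35 and 0.72 without the 1 cell. In the cells with at least 3000 genes, HSD17B2 had -1.04 and CRISP3 -1.53. Other scalings moved the median of all genes by at most 0.03. No paired analysis was possible because each group holds 1 sample, and leaving out a sample leaves no comparison.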

Other observations

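A single gRNA2 cell also held 55.8% of its sample's UMIs of IGFBP6, a binding protein of insulin-like growth factors, which stood at 9.32 CPM with gRNA2 and 2.68 CPM in the VPR control. ISG20, an interferon-induced exonuclease gene, had 26.3% of its gRNA2 UMIs in 1 cell, and KRT34, a hair keratin gene, had 33.3% of its control UMIs in 1 cell. By summed interferon-stimulated genes, 2 gRNA2 cells lay above the highest VPR control cell, which reached 7825 CPM.

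Some genes past 1.5-fold that no list held are known for roles in metabolism and signalling. AKR1B1, encoding aldose reductase, stood at 159.5 CPM with gRNA2 and 88.5 CPM in the VPR control (log2 0.84), the mitochondrial quality control kinase gene PINK1 at 62.2 and 36.5 CPM (0.75), and FGFBP1, encoding a carrier of fibroblast growth factors, at 126 and 77.4 CPM (0.70). The VPR control over the HA control had 0.65 for AKR1B1, 0.33 for PINK1 and -0.76 for FGFBP1. For FGFBP1 the controls thus differed by about as much as gRNA2 and its control, so its higher level depends on the control used. TNFSF10, encoding the death ligand TRAIL, stood at 32.7 CPM with gRNA2 and 56.8 CPM in the control (-0.78), the chemokine gene CX3CL1 at 15.7 and 26.3 CPM (-0.71), the stem cell surface marker gene PROM1 at 16.3 and 27.9 CPM (-0.75) and AGR2, encoding a protein disulfide isomerase of secretory epithelium, at 40.0 and 62.6 CPM (-0.63).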
